A study of Mus musculus with 32 samples.

Results

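Glycolysis turns glucose into pyruvate, and the genes described here encode its enzymes, the carriers that bring glucose into the cell and export lactate, and the regulators around them. The set was 35 genes chosen by symbol: glucose carriers, hexokinases, enzymes of upper and lower glycolysis, lactate dehydrogenases and lactate carriers, PFKFB enzymes, gatekeepers of pyruvate entry to mitochondria, and Hif1a. They matched 36 rows among 55487 gene identifiers, because Aldoa has a second gene model, ENSMUSG00000114515.2, called Aldoa-2 here. Of the 36 rows, 34 passed the filter on low counts, among 14869 genes tested. Ldhb and Pdk2 did not pass.

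RNA was sequenced from a pair of mouse hematopoietic progenitor lines derived from fetal liver and immortalized with ER-HOXB8, an estrogen-dependent HOXB8 fusion that holds progenitors in an immature state. The mutant line, hi-77-/-, lacks a distal enhancer of Gata2 on both alleles, and the wild-type line, hi-77+/+, carries it on both. Each line was given IFNg with Pam3CSK4, Pam3CSK4 (100 ng/ml), IFNg (1 ng/ml) or vehicle for 4 h, with 4 libraries in each of the 8 groups. IFNg is interferon gamma and Pam3CSK4 is a synthetic lipopeptide that activates Toll-like receptor 2. All groups, vehicle included, grew with b-estradiol, SCF-conditioned medium and G418. Each genotype is a single line, so the enhancer deletion and any other difference between the lines cannot be told apart. Nothing in the labels tells whether libraries sharing a group are separate cultures, and p-values therefore measure only the spread between libraries, which may be technical.

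In glycolysis, a hexokinase traps glucose as glucose 6-phosphate, phosphofructokinase commits it to breakdown, and lower enzymes yield ATP and pyruvate. Pyruvate is then reduced to lactate and exported, or enters mitochondria through a carrier and is oxidized by pyruvate dehydrogenase, which PDK kinases inhibit. Hif1a encodes the oxygen-regulated subunit of a transcription factor known to induce many of these genes, and activated macrophages are known for raised glycolysis.

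Gata2, the gene whose enhancer was deleted, had 6.62, 8.03, 7.37 and 8.06 CPM (counts scaled to library size, with TMM factors) in mutant vehicle libraries, against 35.1, 40.4, 54.7 and 43.4 CPM in wild-type vehicle libraries. The genotypes did not overlap, and Gata2 was lower in the mutant at log2 -2.53 ± 0.10 (edgeR adjusted p = 1.0e-19). Library totals ran between 44.18 M and 71.42 M counts. All 7 progenitor markers had counts in every group, and their summed level was 3421 to 3486 CPM in mutant and 2582 to 2764 CPM in wild-type vehicle libraries. Monocyte, macrophage and dendritic markers summed to 728 to 813 CPM in mutant vehicle libraries, against 377 to 467 CPM in wild-type ones. Neutrophil markers summed to 2308 to 2419 CPM in mutant and 3040.0 to 3153 CPM in wild-type vehicle libraries, and 10 of 11 were lower in the mutant (median log2 -4.08). Mast cell and basophil markers summed to 116 to 126 CPM in mutant vehicle libraries (7 of 9 with counts, Fcer1a and Tpsb2 at 0) and 698 to 741 CPM in wild-type ones (8 of 9, Fcer1a at 0), and all 7 tested were lower in the mutant (median log2 -3.98). Early B lymphoid markers summed to 359.7 to 377 CPM in mutant and 65.9 to 73.3 CPM in wild-type vehicle libraries. Hepatocyte markers stayed at 0.260 CPM or less in mutant and 0.0843 CPM or less in wild-type vehicle libraries. The share of counts in mitochondrial, microRNA and small structural RNA genes, called the structural RNA share below, averaged 25.76% ± 1.78 in mutant and 23.96% ± 4.17 in wild-type vehicle libraries (SD, n = 4). It was 27.33% ± 2.12 in mutant Pam3CSK4 libraries and 14.84% ± 1.47 in wild-type Pam3CSK4 libraries, so it differs between groups that are compared below. The 4 mutant libraries given both agonists fell into pairs, with shares of 18.91% and 18.82% in libraries 1 and 2 and 27.83% and 26.29% in libraries 3 and 4. Their counts differed by a chi-square per gene of 10.93 between 1 and 2 and 19.6 between 3 and 4, but of 102 to 152 across the pairs. Other groups were uneven too. Mutant IFNg library 4, with a share of 15.45%, differed from the rest of its group by 84.9 to 147, where the rest differed by 11.4 to 46.7. Pairs of wild-type vehicle libraries differed by 34.2 to 139.

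For 5 genes on which the results turn, the 250 bases before a RefSeq start are shown, read 5′ to 3′ along the gene from build GRCm38.p6. Slc2a6 and Hk3 were higher in the mutant with every treatment and Slc16a3 was lower. Hk2 rose with IFNg in both lines, and Ldha holds the most motif matches of the set. Capitals mark ACGTG or its reverse complement CACGT, with overlapping matches joined. ACGTG is a form of the core of the element bound by HIF factors. The form GCGTG was not counted here. It stands in lower case in the Slc2a6 window, and the count given below for Slc2a6 does not cover it. The windows are chr2:27027999-27028248 (minus strand) for Slc2a6, chr6:82774455-82774704 (minus) for Hk2 and chr13:55021386-55021635 (minus) for Hk3. Those of Slc16a3 and Ldha are chr11:120948817-120949066 (plus) and chr7:46845554-46845803 (plus). Ldha has another window, chr7:46846832-46847081 (plus), which held 0 matches, and its window with the most matches is the one shown.
Slc2a6: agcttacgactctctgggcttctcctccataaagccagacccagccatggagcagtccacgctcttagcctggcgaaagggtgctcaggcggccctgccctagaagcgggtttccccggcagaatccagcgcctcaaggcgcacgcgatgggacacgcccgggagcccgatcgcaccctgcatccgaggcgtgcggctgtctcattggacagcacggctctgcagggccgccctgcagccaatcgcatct
Hk2: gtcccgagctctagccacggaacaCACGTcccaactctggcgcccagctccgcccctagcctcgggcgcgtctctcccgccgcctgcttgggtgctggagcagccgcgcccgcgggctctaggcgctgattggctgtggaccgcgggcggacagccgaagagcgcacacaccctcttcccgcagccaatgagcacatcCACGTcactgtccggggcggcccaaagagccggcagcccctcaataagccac
Hk3: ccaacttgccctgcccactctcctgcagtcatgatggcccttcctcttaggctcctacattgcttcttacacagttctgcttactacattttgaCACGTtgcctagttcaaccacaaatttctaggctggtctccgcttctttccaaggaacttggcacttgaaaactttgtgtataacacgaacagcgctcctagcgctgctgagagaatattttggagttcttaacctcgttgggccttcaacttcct
Slc16a3: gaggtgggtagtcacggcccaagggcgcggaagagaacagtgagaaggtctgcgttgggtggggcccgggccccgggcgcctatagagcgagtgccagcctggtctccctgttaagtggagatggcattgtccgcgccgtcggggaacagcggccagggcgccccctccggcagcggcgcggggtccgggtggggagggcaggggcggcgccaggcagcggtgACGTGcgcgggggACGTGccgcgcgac
Ldha: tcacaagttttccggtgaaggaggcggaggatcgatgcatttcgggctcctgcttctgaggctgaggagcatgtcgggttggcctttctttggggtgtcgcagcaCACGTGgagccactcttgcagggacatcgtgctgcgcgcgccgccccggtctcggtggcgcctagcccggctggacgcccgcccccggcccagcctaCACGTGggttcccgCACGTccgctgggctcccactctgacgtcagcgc
ACGTG or CACGT stood in 3 places before Ldha, in 2 places before Hk2 and Slc16a3, in 1 before Hk3 and in 0 before Slc2a6. Of the 34 members with a window, 16 held a match in at least 1 of their windows (47.1%), against 18.5% of 27025 genes. Counted by window, 20 of 54 member windows (37.0%) and 5444 of 32851 windows (16.6%) held one. A match describes letters in these windows and shows no binding. Many members were already known as genes induced by HIF, so these shares are no test of that. Windows were not matched for base composition.

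Levels were compared between genes as CPM per kilobase of effective transcript length. Gapdh, the dehydrogenase that opens lower glycolysis, stood highest in vehicle cells, at 1663 ± 44.1 CPM per kb in mutant and 1969.8 ± 53.5 CPM per kb in wild-type libraries (SD, n = 4). Eno1, the common enolase, followed at 927 ± 13.3 in mutant and 966 ± 19.9 CPM per kb in wild-type cells. Aldoa (aldolase A) and Ldha (lactate dehydrogenase A) came next, at 778 ± 16.6 and 765 ± 29.1 CPM per kb in wild-type vehicle cells, which do not differ beyond their spread. The enzymes around the first committed steps sat far lower. Phosphofructokinase genes had 15.9 (Pfkm) to 26.2 (Pfkp) CPM per kb in mutant and 20.8 to 32.2 CPM per kb in wild-type vehicle cells, and Slc2a1, the GLUT1 glucose carrier, had 8.72 ± 0.215 and 10.1 ± 0.676 CPM per kb. Aldoc and Eno2, isozymes best known from brain, stayed below 0.4 CPM per kb in every vehicle library.

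**Figure D1:**
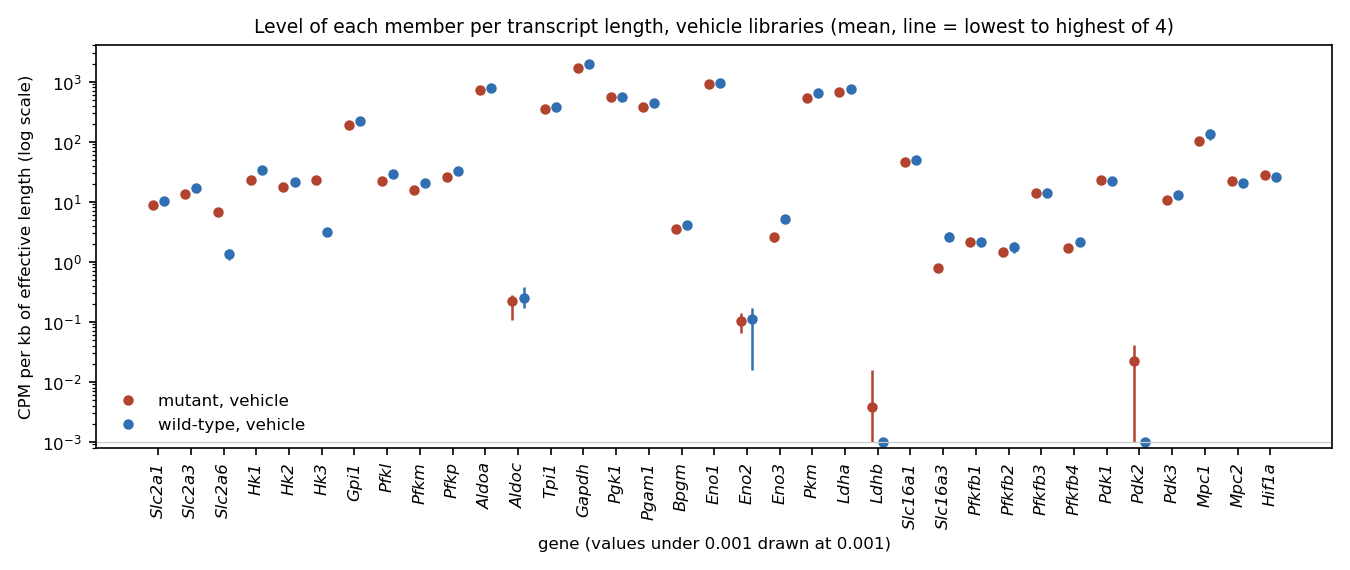
CPM per kb of effective length (log axis) for the 35 genes in vehicle libraries, with mutant in red beside wild-type in blue, points for means of 4 libraries and lines from the lowest to the highest. Among members that passed the filter, Slc2a6, Hk3 and Slc16a3 have genotypes that stand farthest apart. Ldhb and Pdk2 did not pass and sit at or near 0, with zeros drawn at a floor.

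The members that did not pass the filter were close to undetected. Ldhb, the lactate dehydrogenase subunit of oxidative tissues, had 6 counts over 16 mutant libraries and 1 count over 16 wild-type libraries, so Ldha gave 100.0% of the Ldha and Ldhb TPM in each group. Pdk2, a PDK kinase, had 41 counts over 16 mutant libraries and 0 counts over 16 wild-type libraries. Its mean was 0.0450 CPM in mutant vehicle libraries, at least 3.22-fold higher than a floor of 3 counts over the 4 wild-type vehicle libraries (0.0140 CPM). That floor covers counting error only. Aldoa-2 had 4 to 26 counts per library.

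Most members differed between the genotypes, and mostly toward lower values in the mutant. With vehicle, 26 of 34 changed (76.5%), where 53.7% of all 14869 genes changed. Changed here means an adjusted p under 0.05 in edgeR's quasi-likelihood test. Of these, 22 were lower in the mutant and 4 higher, while 29.3% of all genes were lower and 24.4% higher. The median member had a log2 difference of -0.22 and the median gene -0.01. With RLE size factors the vehicle split was 20 lower and 4 higher, and with upper-quartile scaling it was 17 lower and 6 higher. Of all genes called, 49.8% and 58.8% were then higher, against 45.4% in the main test. Summed over all member rows, the mutant had 10153 ± 85.2 CPM with vehicle and the wild-type 11327 ± 186 CPM (SD, n = 4).

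The treated cells showed the same leaning toward lower mutant values. With IFNg, 19 members changed (55.9%, against 53.1% of all genes), a share near the background, with 15 lower (27.4% of all genes) and 4 higher (25.7%). With Pam3CSK4, 24 members changed (70.6%, against 65.6% of all genes), with 19 lower (33.5%) and 5 higher (32.1%). With both agonists, 23 changed (67.6%, against 60.2% of all genes), with 18 lower (29.7%) and 5 higher (30.5%). The structural RNA share was higher in the mutant in each of these comparisons. Mutant against wild-type, it averaged 21.08% against 15.9% with IFNg, 27.33% against 14.84% with Pam3CSK4 and 22.96% against 13.62% with both. Fitted as a covariate, it left 48.4%, 45.4% and 47.5% of all genes changed. Across the 4 comparisons, 13 of 34 members were lower in the mutant each time, as were 19.5% of all genes. Higher each time were 4 members, Slc2a6, Hk3, Mpc2 and Hif1a, and 16.1% of all genes. A further 10 changed in some comparisons in 1 direction, Mpc1 changed in both directions, and 6 changed in none. The median size of the difference on the log2 scale was 0.228 over members and 0.236 over all genes with vehicle, 0.159 and 0.231 with IFNg, 0.348 and 0.328 with Pam3CSK4, and 0.252 and 0.282 given both.

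**Figure D2:**
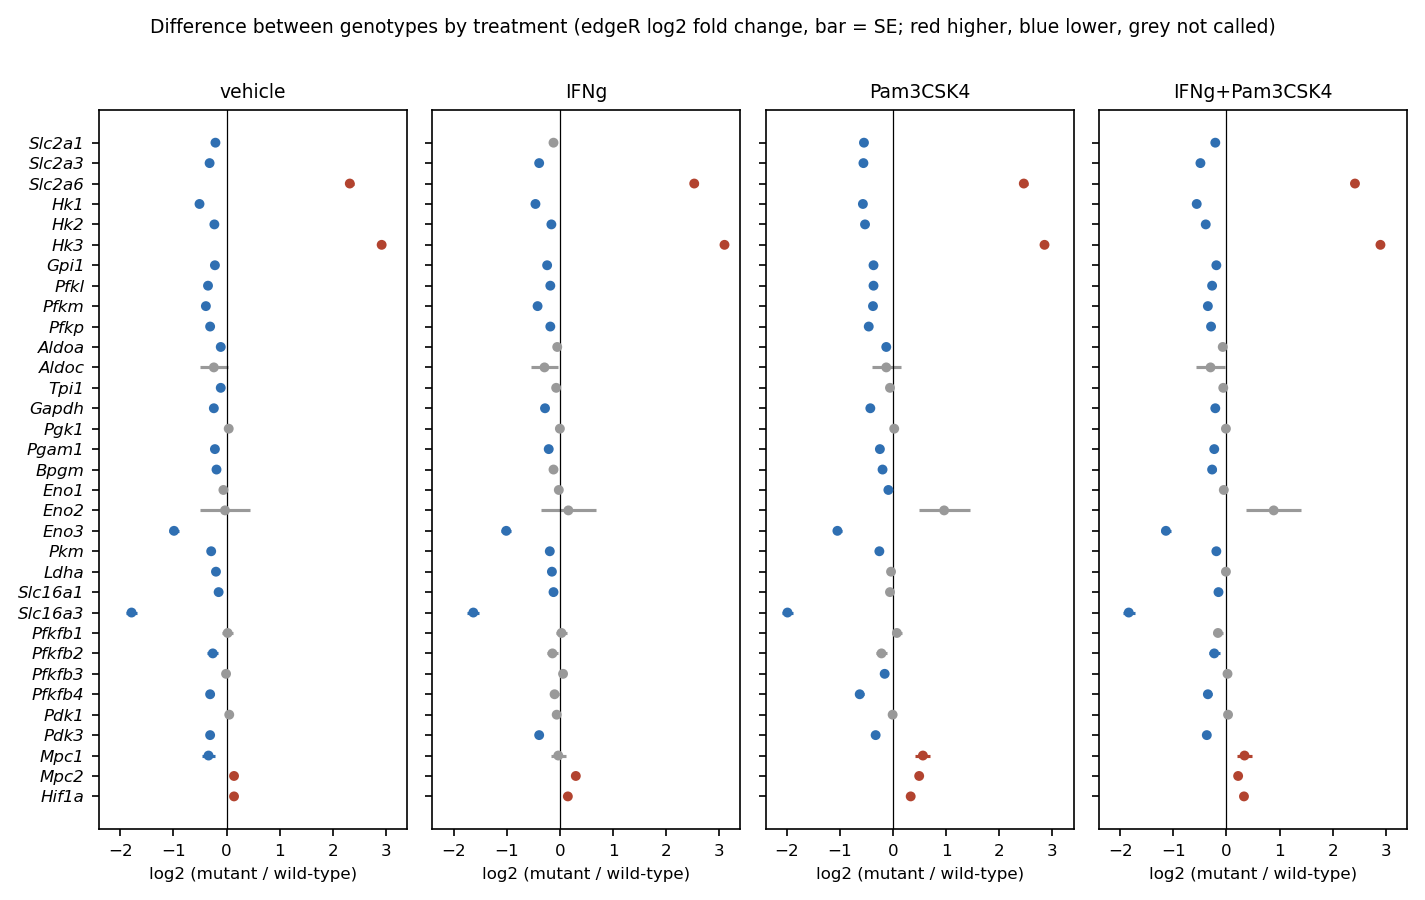
Log2 of mutant over wild-type (edgeR, bars are SE) for the tested genes of the set under each treatment, with red for higher, blue for lower and grey for not called; Aldoa-2 is not drawn. Hk3 and Slc2a6 lie above 2 and Slc16a3 below -1.5 in all 4 panels, and most of the rest lie between -0.6 and 0.

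Glucose carriers split. Slc2a6 encodes GLUT6, a carrier found on internal membranes. It had 11.6, 13.5, 12.9 and 13.3 CPM in mutant vehicle libraries, against 2.01, 3.04, 2.47 and 2.72 CPM in wild-type vehicle libraries. Each mutant library exceeded every wild-type one, a log2 difference of 2.32 ± 0.08 (edgeR adjusted p = 3.1e-23). Treated cells gave much the same values, 2.53 ± 0.07 for IFNg, 2.46 ± 0.07 for Pam3CSK4 and 2.42 ± 0.06 for the combination. Slc2a1 had 25.7, 26.8, 26.0 and 27.1 CPM in mutant vehicle libraries and 29.4, 30.7, 33.1 and 28.5 CPM in wild-type ones. It was lower in the mutant without overlap with vehicle (log2 -0.21 ± 0.05), Pam3CSK4 (-0.55 ± 0.05) and both agonists (-0.21 ± 0.05), while with IFNg the value was -0.12 ± 0.05 (edgeR adjusted p = 0.0600). Slc2a3, the high-affinity GLUT3 carrier, was lower in the mutant under every treatment, at log2 -0.32 ± 0.04 with vehicle and -0.56 ± 0.04 with Pam3CSK4.

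Hexokinase genes moved in opposite directions. Hk3, the hexokinase abundant in mature myeloid cells, had 65.1, 71.3, 68.1 and 68.4 CPM in mutant vehicle libraries, against 8.77 to 9.20 CPM in the 4 wild-type ones. That 7.55-fold difference (log2 2.92 ± 0.05, edgeR adjusted p = 4.2e-32) was the largest of the set, and it was 8.59-fold with IFNg, 7.23-fold with Pam3CSK4 and 7.47-fold with both. Hk1, the housekeeping isozyme bound to mitochondria, ran the other way. It had 87.1, 89.6, 88.8 and 92.2 CPM in mutant and 118, 125, 137 and 128 CPM in wild-type vehicle libraries, without overlap (log2 -0.51 ± 0.04). Hk2, the inducible isozyme, had 91.8, 92.7, 93.0 and 98.5 CPM in mutant and 107, 111, 116 and 108 CPM in wild-type vehicle libraries, again without overlap (log2 -0.23 ± 0.05). Its difference was -0.16 ± 0.05 with IFNg, -0.53 ± 0.05 with Pam3CSK4 and -0.39 ± 0.05 with both. Monocyte, macrophage and dendritic markers also summed higher in mutant vehicle libraries (5 of 9 tested were higher and 4 lower) and neutrophil markers lower, as given above, and their part in the Hk3 and Slc2a6 values was not tested. In RNA from whole cultures, fewer cells of a type and less RNA per cell cannot be told apart.

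In upper glycolysis, 6 of 8 rows were lower in mutant vehicle cells and none higher, where 29.3% of all genes were lower and 24.4% higher. The 3 phosphofructokinases were lower by like amounts, Pfkm at log2 -0.39 ± 0.04, Pfkl at -0.35 ± 0.05 and Pfkp at -0.31 ± 0.04. Pfkm had 39.5, 44.3, 39.7 and 42.5 CPM in mutant and 52.8, 55.3, 53.5 and 55.3 CPM in wild-type vehicle libraries, with no overlap. Gpi1, which isomerizes glucose 6-phosphate, was lower at log2 -0.22 ± 0.03 with vehicle and -0.37 ± 0.03 with Pam3CSK4. Aldoa and Tpi1, which split the sugar and interconvert the products, had small differences of -0.11 ± 0.03 and -0.11 ± 0.04, both passing the test. Aldoc (-0.24 ± 0.27) and Aldoa-2 (-0.01 ± 0.30) did not pass, and at under 1 CPM their intervals are wide.

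Among 8 rows of lower glycolysis, 5 were lower in mutant vehicle cells and none higher, where 29.3% of all genes were lower and 24.4% higher. Eno3, the muscle enolase, had 3.42, 3.61, 2.63 and 3.07 CPM in mutant and 7.13, 5.77, 6.31 and 6.10 CPM in wild-type vehicle libraries. The libraries did not overlap, and the log2 difference was -0.99 ± 0.09 (edgeR adjusted p = 2.0e-11), -1.01 ± 0.09 with IFNg, -1.05 ± 0.09 with Pam3CSK4 and -1.14 ± 0.09 with both. Gapdh was lower at -0.24 ± 0.04 with vehicle and -0.43 ± 0.04 with Pam3CSK4. Pgam1, the mutase of lower glycolysis, was lower at -0.22 ± 0.03 and Pkm, pyruvate kinase, at -0.29 ± 0.03 with vehicle. Bpgm, which makes the 2,3-bisphosphoglycerate of red cells, was lower at -0.19 ± 0.07. Pgk1, the first ATP-yielding kinase, had 886, 904, 938 and 852 CPM in mutant and 899.8, 898, 802 and 884 CPM in wild-type vehicle libraries, which overlap (log2 0.04 ± 0.04, edgeR adjusted p = 0.361). Eno1 (-0.06 ± 0.04) and Eno2 (-0.03 ± 0.48) did not pass with vehicle. Gapdh, Pgk1, Pgam1, Eno1, Pkm and Pfkfb2 have deposited counts that are not whole in most libraries, as happens where reads are split with similar genes, so their levels are uncertain.

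All 3 tested lactate genes were lower in mutant vehicle cells, as were 29.3% of all genes. Slc16a3 encodes MCT4, the lactate exporter of highly glycolytic cells, and was scarce in both lines. It had 1.69, 1.52, 1.86 and 1.77 CPM in mutant vehicle libraries, against 5.56, 5.72, 6.84 and 5.65 CPM in wild-type ones. No mutant library reached a wild-type one, and the log2 difference was -1.79 ± 0.11 (edgeR adjusted p = 2.1e-16), -1.63 ± 0.11 with IFNg, -1.99 ± 0.11 with Pam3CSK4 and -1.84 ± 0.11 with both. Slc16a1, encoding MCT1, the general carrier of lactate and pyruvate, differed little: 189, 188, 193 and 185 CPM in mutant and 221, 213, 192 and 209 CPM in wild-type vehicle libraries (log2 -0.15 ± 0.03). One wild-type library, at 192 CPM, lay within the mutant range. Ldha had 882, 934, 921 and 863 CPM in mutant and 1066, 1033, 978 and 1072 CPM in wild-type vehicle libraries, without overlap (log2 -0.20 ± 0.04). With Pam3CSK4 and with both agonists the Ldha difference was -0.04 ± 0.04 and -0.01 ± 0.04 and did not pass the test.

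**Figure D3:**
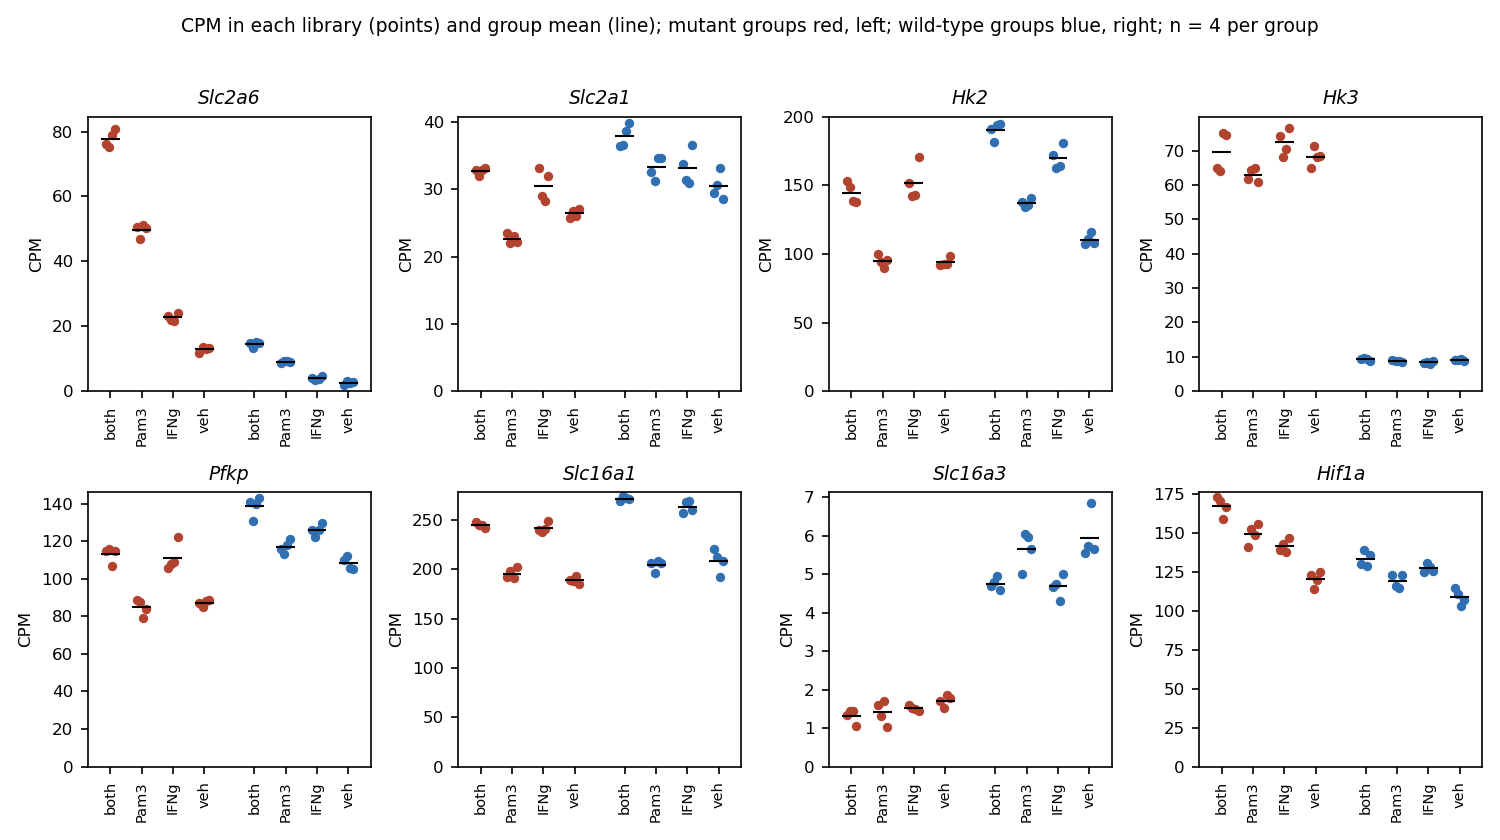
CPM of 8 members in each library (points) with group means (lines), mutant groups red on the left and wild-type groups blue on the right, n = 4 per group. Slc2a6 climbs with Pam3CSK4 and further with both agonists in each genotype. Hk2 and Slc16a1 climb with IFNg or both, and Hk2 also with Pam3CSK4 in the wild-type. Hk3 separates the genotypes under every treatment.

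PFKFB enzymes set the level of fructose 2,6-bisphosphate, the activator of phosphofructokinase. Pfkfb3, the form with the strongest kinase activity, had 59.7, 59.1, 58.4 and 61.0 CPM in mutant and 59.7, 62.2, 60.7 and 57.3 CPM in wild-type vehicle libraries. These overlap fully (log2 -0.01 ± 0.04), and of the 4 treatments the test was passed with Pam3CSK4 alone (-0.16 ± 0.04, edgeR adjusted p = 2.7e-04). Pfkfb4 was lower in the mutant at -0.31 ± 0.08 with vehicle and -0.63 ± 0.08 with Pam3CSK4. Pfkfb2, the heart form, was lower at -0.26 ± 0.10 with vehicle, and Pfkfb1 passed in no genotype comparison, with 0.02 ± 0.10 with vehicle.

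At the entry of pyruvate to mitochondria, Pdk3 was lower in the mutant under every treatment, at -0.31 ± 0.05 with vehicle. It had 19.8, 20.6, 19.3 and 19.2 CPM in mutant and 25.6, 25.1, 22.5 and 25.0 CPM in wild-type vehicle libraries, with no overlap. Pdk1, the PDK kinase known as a HIF target, passed in none of the 4 comparisons (0.05 ± 0.03 with vehicle). Pdk3, Pgk1 and Pfkfb1 lie on the X chromosome. The lines differ in Xist, the RNA of the inactive X, at 391 to 549 CPM in mutant and 0 to 0.0801 CPM in wild-type vehicle libraries, and its part in these values was not tested.

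Mpc1 and Mpc2 encode the subunits of the mitochondrial pyruvate carrier. Mpc2 was higher in the mutant throughout, by log2 0.14 ± 0.06 in vehicle cells and by 0.30 ± 0.06, 0.49 ± 0.06 and 0.22 ± 0.06 in cells given IFNg, Pam3CSK4 and the combination. It averaged 18.8 ± 0.688 CPM in mutant and 13.3 ± 0.749 CPM in wild-type Pam3CSK4 libraries (SD, n = 4), with no overlap. With vehicle the call was lost without any 1 of 5 libraries, the value then being 0.09 (wild-type library 3) to 0.14 (wild-type library 2). Mpc1 turned with the treatment. Its mutant vehicle libraries had 81.6, 78.5, 71.9 and 70.5 CPM, against 118, 86.2, 75.5 and 104 CPM in wild-type ones, lower in the mutant with overlap (log2 -0.34 ± 0.13). With Pam3CSK4 it had 77.9, 83.5, 94.4 and 100.3 CPM in mutant and 57.5, 65.9, 59.8 and 57.7 CPM in wild-type libraries, higher in the mutant without overlap (log2 0.56 ± 0.14). The structural RNA share moved with Mpc1, at 27.33% in mutant and 14.84% in wild-type Pam3CSK4 libraries. With that share as a covariate the Mpc1 difference was -0.10 with Pam3CSK4 and -0.17 with both, the reverse of 0.56 and 0.34. The call with both agonists was also lost without any 1 of 5 libraries, at 0.25 without mutant library 4 and 0.14 without mutant libraries 3 and 4.

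Hif1a had 123, 114, 119.7 and 125 CPM in mutant vehicle libraries, against 115, 111, 103 and 107 CPM in wild-type ones. The ranges overlap in 1 wild-type library, and the mutant was higher by log2 0.14 ± 0.04 (edgeR adjusted p = 0.00154). With Pam3CSK4 it had 141, 153, 149 and 156 CPM in mutant and 123, 116, 115 and 123 CPM in wild-type libraries, without overlap (log2 0.33 ± 0.04). Both agonists gave 0.33 ± 0.04 and IFNg 0.15 ± 0.04.

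IFNg raised a small group of members in both lines, headed by Slc2a6, Hk2 and Slc16a1. Slc2a6 had 23.0, 21.9, 21.7 and 24.2 CPM in mutant IFNg libraries and 3.93, 3.41, 3.74 and 4.58 CPM in wild-type ones, each set above its vehicle libraries (log2 0.82 ± 0.07 and 0.62 ± 0.09). In the mutant 10 of 34 members changed (29.4%, against 33.2% of all genes), 8 higher (18.3%) and 2 lower (14.9%). In the wild-type 13 changed (38.2%, against 35.4%), 9 higher (17.8%) and 4 lower (17.6%). Both shares are near the background, and upper-quartile scaling gave 7 higher and 8 lower in each line. Hk2 had 152, 142, 143 and 171 CPM in mutant IFNg libraries, a rise of log2 0.69 ± 0.05 over the 91.8 to 98.5 CPM of vehicle without overlap (edgeR adjusted p = 1.5e-14). In wild-type IFNg libraries it had 172, 163, 164 and 181 CPM, up by 0.62 ± 0.05. Slc16a1 had at least 238 CPM in mutant IFNg libraries, against 185 to 193 CPM with vehicle, and 257, 268, 269 and 260.0 CPM in wild-type IFNg libraries, against 192 to 221 CPM, with no overlap in either line. It rose by 0.36 ± 0.03 in mutant and 0.33 ± 0.03 in wild-type cells, Pfkp by 0.35 ± 0.04 and 0.22 ± 0.04, Pfkfb3 by 0.31 ± 0.04 and 0.24 ± 0.04, and Hif1a by 0.24 ± 0.04 and 0.23 ± 0.04. Pgam1 rose by 0.10 ± 0.03 in mutant and 0.09 ± 0.03 in wild-type cells, and Pdk3 (0.16 ± 0.05) and Slc2a3 (0.10 ± 0.04) rose in the wild-type. Slc2a1 rose by 0.21 ± 0.05 in mutant cells and had 0.12 ± 0.05 in wild-type cells (edgeR adjusted p = 0.0726). Ldha had 0.03 ± 0.04 and -0.03 ± 0.04 and did not pass in either line. Pfkfb4 fell in both, at -0.22 ± 0.08 in mutant and -0.43 ± 0.08 in wild-type cells. Pfkm fell with a log2 change of -0.11 ± 0.04 in the mutant, and Slc16a3, Mpc1 and Mpc2 fell in the wild-type at -0.35 ± 0.10, -0.45 ± 0.14 and -0.24 ± 0.06. Slc16a3 had -0.18 ± 0.12 in mutant cells and did not pass. The calls of Pfkfb4 and Pfkm in the mutant were lost without any 1 of 4 and 5 libraries, at -0.16 and -0.08 without mutant vehicle libraries 1 and 2 in turn. That of Mpc1 was lost without wild-type IFNg library 4 (-0.35) or vehicle library 1 (-0.34). The structural RNA share was 21.08% ± 3.89 with IFNg and 25.76% ± 1.78 with vehicle in the mutant, and 15.9% ± 1.87 and 23.96% ± 4.17 in the wild-type. Fitted with that share as covariate, 9 members changed in each line. Slc2a6 (0.81 in mutant and 0.60 in wild-type cells), Hk2 (0.61 and 0.48) and Slc16a1 (0.35 and 0.32) were still called, while the wild-type values of Mpc1 (-0.02) and Mpc2 (-0.15) were not. Over all genes the covariate left 18.8% changed in the wild-type and 30.6% in the mutant.

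Pam3CSK4 changed few members beyond Slc2a6. In the mutant 7 changed (20.6%, against 24.3% of all genes), 2 higher (11.5%) and 5 lower (12.8%). In the wild-type 7 changed (20.6%, against 22.0%), 4 higher (10.4%) and 3 lower (11.7%), so both shares are near the background. Upper-quartile scaling gave 2 higher and 8 lower in mutant and 6 higher and 2 lower in wild-type cells. Slc2a6 had 50.6, 47.0, 51.1 and 50.4 CPM in mutant Pam3CSK4 libraries, against 11.6 to 13.5 CPM with vehicle, a 3.88-fold rise (log2 1.96 ± 0.06, edgeR adjusted p = 3.4e-23). Wild-type Pam3CSK4 libraries had 8.58, 9.33, 9.43 and 8.95 CPM, against 2.01 to 3.04 CPM with vehicle, a 3.54-fold rise (1.82 ± 0.08). The other members that changed in the mutant were Hif1a, up by 0.31 ± 0.04, and Slc2a1, Slc2a3, Pfkfb3, Pfkfb4 and Gapdh, down at -0.22 ± 0.05, -0.15 ± 0.04, -0.13 ± 0.04, -0.44 ± 0.08 and -0.12 ± 0.04. In the wild-type Hk2 rose by 0.31 ± 0.05, Hif1a by 0.13 ± 0.04 and Pfkp by 0.11 ± 0.04, while Mpc1, Mpc2 and Ldha fell with a log2 change of -0.67 ± 0.14, -0.27 ± 0.06 and -0.11 ± 0.04. In mutant cells Hk2 had 0.01 ± 0.05, Ldha 0.05 ± 0.04 and Slc16a3 -0.27 ± 0.12, and in wild-type cells Slc2a1 had 0.13 ± 0.05, Pfkfb3 0.02 ± 0.04 and Slc16a3 -0.07 ± 0.10, none of them called. The wild-type count rests on libraries whose structural RNA share was 14.84% ± 1.47 with Pam3CSK4 and 23.96% ± 4.17 with vehicle. It was 1 (Slc2a6) with that share as a covariate, where 1.18% of all genes changed. Without wild-type vehicle libraries 1 and 4, whose shares were highest, it was 4, where 4.23% of all genes changed. The member count was also 4 without wild-type Pam3CSK4 library 1 or 4, which ended the calls of Hif1a (0.12 and 0.11), Pfkp (0.12 and 0.10) and Ldha (-0.11 each). In all, Pfkp and Ldha each lost their call without any 1 of 5 libraries, and Hif1a without any 1 of 2. The Gapdh call in the mutant was lost without Pam3CSK4 library 4 (-0.10).

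With both agonists Slc2a6 rose most, and Hk2, Hif1a, Pfkp, Slc16a1, Slc2a1 and Pfkfb3 rose in both lines. In the mutant 17 of 34 members changed, against 43.8% of all genes, 10 of them higher (23.7%) and 7 lower (20.1%). In the wild-type 14 changed (41.2%, against 43.7%), 9 higher (21.2%) and 5 lower (22.4%). Upper-quartile scaling gave 8 higher and 10 lower in mutant and 9 higher and 8 lower in wild-type cells. The wild-type count was 9 once structural RNA share entered as covariate, where 24.5% of all genes changed. The structural RNA share was 13.62% ± 0.61 with both and 23.96% ± 4.17 with vehicle. Slc2a6 averaged 77.8 ± 2.53 CPM in mutant and 14.5 ± 0.750 CPM in wild-type libraries given both (SD, n = 4). Against vehicle that was 6.06-fold higher in mutant and 5.65-fold higher in wild-type cells, where IFNg alone gave 1.77-fold and 1.54-fold. Every library given both exceeded every library given either agonist alone in its line. Hk2 rose by 0.62 ± 0.05 and 0.79 ± 0.05 in mutant and wild-type cells, Hif1a by 0.48 ± 0.04 and 0.30 ± 0.04, Pfkp by 0.38 ± 0.04 and 0.36 ± 0.04, and Slc16a1 by 0.38 ± 0.03 in each. Slc2a1 rose by 0.31 ± 0.05 in each line and Pfkfb3 by 0.23 ± 0.04 and 0.20 ± 0.04. Pfkfb4 fell with a log2 change of -0.56 ± 0.08 and -0.52 ± 0.08, Slc16a3 at -0.37 ± 0.12 and -0.32 ± 0.10, and Mpc2 at -0.20 ± 0.05 and -0.28 ± 0.06. Pfkfb1 fell with a log2 change of -0.38 ± 0.10 and Eno3 at -0.24 ± 0.10 in the mutant, and Mpc1 at -0.71 ± 0.14 in the wild-type. Aldoa-2, at 4 to 26 counts per library, fell in both lines (-0.81 ± 0.33 and -1.05 ± 0.34). Smaller calls were Pgam1 (0.10 ± 0.03 and 0.11 ± 0.03), Pdk3 in the wild-type (0.15 ± 0.05), and Pkm (0.08 ± 0.03) and Slc2a3 (-0.10 ± 0.04) in the mutant. Hk1 and Hk3, which separate the lines, passed in none of the 6 treatment comparisons. Ldha rose by 0.16 ± 0.04 in the mutant and had -0.03 ± 0.04 in the wild-type. Slc16a3 lost its call without mutant library 4 given both (-0.29) and, in the wild-type, without vehicle library 3 (-0.25). Eno3 lost its call without any 1 of 4 libraries, at -0.18 without mutant vehicle library 2. Without mutant libraries 3 and 4 given both agonists, an alternative chosen after seeing the data, 12 members changed in the mutant (39.1% of all genes). Slc2a6 (2.56), Hk2 (0.69) and Hif1a (0.52) were then still called, and Ldha (0.09), Slc16a3 (-0.31) and Eno3 (-0.25) were not.

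**Figure D4:**
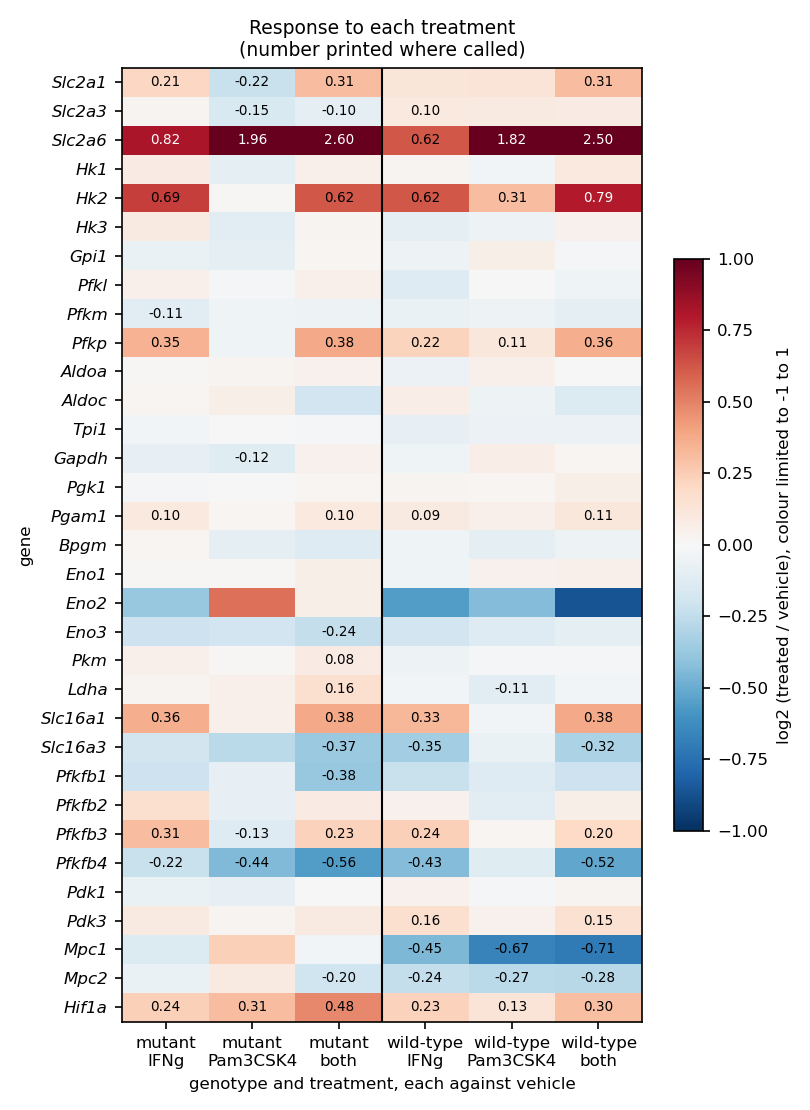
Log2 of treated over vehicle for the tested genes of the set, with the 3 mutant columns left of the 3 wild-type columns, colour limited to -1 to 1 and a number where the change was called; Aldoa-2 is not drawn. Slc2a6 is the one row above 0.5 in every column.

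The responses of the lines were then compared directly, as the mutant response minus the wild-type response. For IFNg no member differed, where 1.65% of all genes did (0.827% higher and 0.820% lower), and 6 members had an unadjusted p under 0.05 in edgeR. DESeq2 called 0. For Slc2a6 the IFNg responses were 0.82 ± 0.07 in mutant and 0.62 ± 0.09 in wild-type cells, and the difference did not pass.

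For Pam3CSK4, 12 of 34 members differed (35.3%, against 26.6% of all genes), 4 higher (14.3%) and 8 lower (12.3%) in the mutant. Upper-quartile scaling gave 2 higher and 8 lower. The carriers Slc2a1 and Slc2a3 differed by -0.35 ± 0.08 and -0.25 ± 0.06 (edgeR adjusted p = 8.7e-04 and 0.00138). Slc2a1 had 23.5, 22.0, 23.1 and 22.1 CPM in mutant Pam3CSK4 libraries, all below the mutant vehicle libraries, and 32.6, 31.2, 34.7 and 34.7 CPM in wild-type Pam3CSK4 libraries, within or above those of vehicle. Hk2 differed by -0.30 ± 0.07, Pfkfb4 by -0.32 ± 0.11, Gapdh by -0.19 ± 0.05, Pfkp by -0.16 ± 0.06, Gpi1 by -0.15 ± 0.05 and Pfkfb3 by -0.15 ± 0.05. Mpc1 (0.90 ± 0.19), Mpc2 (0.36 ± 0.08), Hif1a (0.18 ± 0.05) and Ldha (0.16 ± 0.05) differed the other way. The structural RNA share differed between the groups of this comparison, at 27.33% ± 2.12 and 25.76% ± 1.78 in mutant Pam3CSK4 and vehicle libraries, and 14.84% ± 1.47 and 23.96% ± 4.17 in wild-type ones. With the share as a covariate 1 member differed, Hif1a (0.26), and without wild-type vehicle libraries 1 and 4 there were 7: Slc2a1, Slc2a3, Hk2, Gapdh, Pfkfb4, Mpc1 and Mpc2. Pfkfb4 lost its call without any 1 of 4 libraries, at -0.26 without mutant vehicle library 1.

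For both agonists 4 members differed (11.8%, against 15.8% of all genes), 3 higher (8.80%) and 1 lower (6.99%) in the mutant. They were Mpc1 (0.68 ± 0.19), Ldha (0.19 ± 0.05), Hif1a (0.18 ± 0.05) and, lower, Slc2a3 (-0.17 ± 0.06). Upper-quartile scaling gave 2 higher and 2 lower. The structural RNA share as a covariate left 1 (9.28% of all genes), and 0 differed without wild-type vehicle libraries 1 and 4 (10.6% of all genes). Hif1a lost its call without mutant library 1 given both (0.12), and Slc2a3 without any 1 of 7 libraries (-0.15 to -0.17). Without mutant libraries 3 and 4 given both, 1 member differed, Hif1a (0.22), where 8.34% of all genes did. Mpc1 (0.48), Ldha (0.12) and Slc2a3 (-0.12) were then not called.

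Isozyme use was read from the deposited TPM, as each gene's share of the members of its family in this set. Among Hk1, Hk2 and Hk3, Hk3 made up 36.3% ± 1.04 in mutant and 5.45% ± 0.248 in wild-type vehicle cells (SD, n = 4). Hk1 made up 35.9% ± 0.407 in mutant and 57.9% ± 1.11 in wild-type vehicle cells, and Hk2 27.8% ± 0.634 and 36.6% ± 0.904. In cells given both agonists Hk2 made up 36.6% ± 2.66 in mutant and 48.5% ± 0.792 in wild-type libraries. Among Slc2a1, Slc2a3 and Slc2a6, Slc2a6 made up 62.3% to 65.1% in the 4 mutant libraries and 20.2% ± 0.974 in wild-type cells given both, against 23.2% ± 1.08 in mutant and 4.75% ± 0.764 in wild-type vehicle cells. The phosphofructokinases were alike between lines, with Pfkp at 40.7% ± 1.07 in mutant and 39.5% ± 1.21 in wild-type vehicle cells. Slc16a1 made up 98.3% ± 0.164 in mutant and 95.0% ± 0.907 in wild-type vehicle cells of the Slc16a1 and Slc16a3 total. Such shares do not say what protein is made.

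**Figure D5:**
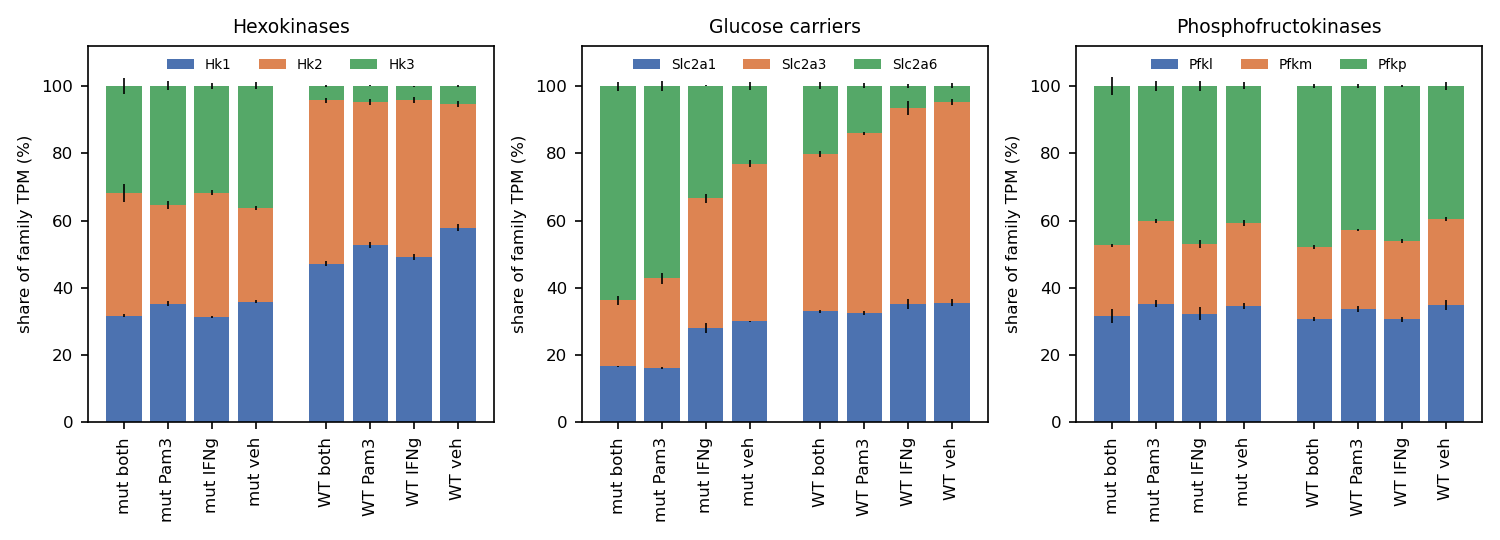
Share of family TPM (%, bars from 0, stacked) for 3 hexokinases, 3 glucose carriers and 3 phosphofructokinases, mutant (mut) groups left of wild-type (WT) groups, means of 4 libraries with SD. Hk3 and Slc2a6 fill far more of their bars in the mutant, and the phosphofructokinase bars look alike.

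Neighbouring pathways were read from lists written by hand with earlier results of these data known. Of 8 pentose phosphate genes tested, 6 were lower in mutant vehicle cells and none higher (median log2 -0.38), led by Rpia, ribose 5-phosphate isomerase, at 37.0 ± 0.486 CPM in mutant and 64.6 ± 2.09 CPM in wild-type cells (-0.80 ± 0.04). Of 10 genes of side branches (serine, hexosamine and glycerol phosphate), 7 were lower and 1 higher (median -0.27). Psph, the last enzyme of serine synthesis, was lower at -0.66 ± 0.04 and Gfpt1, the entry to hexosamines, at -0.55 ± 0.03. Of 16 citric acid cycle genes, 8 were higher and none lower (median 0.08), with Sdhb, a subunit of succinate dehydrogenase, at 0.28 ± 0.05. Pyruvate dehydrogenase genes split, 2 higher and 2 lower of 8. Of 10 glycogen genes 5 were lower and 2 higher, and Gyg, the primer of glycogen, had 76.8 ± 2.00 CPM in mutant and 204 ± 8.21 CPM in wild-type vehicle cells (-1.41 ± 0.03). All counts stand against 29.3% of genes lower and 24.4% higher.

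With vehicle, isozymes outside the set gave 3 lower and 2 higher of 7 in the mutant, where 29.3% of all genes were lower and 24.4% higher. Pklr, the pyruvate kinase of liver and red cells, had 0 counts in all 16 mutant libraries and 7.68 ± 0.519 CPM in wild-type vehicle libraries, at least 591-fold lower in the mutant against a floor of 3 counts over the 4 mutant vehicle libraries. Erythroid markers summed to 964 to 1049.6 CPM in mutant vehicle libraries, with Car1 and Alas2 at 0 (13 of 15 with counts), against 1134 to 1317 CPM in wild-type ones (15 of 15), and 13 of the 14 tested were lower in the mutant (median log2 -5.30). Their part in the Pklr value was not tested.

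The 15 tested regulators of glycolytic genes split into 6 higher and 7 lower in vehicle-treated mutant cells, where 24.4% of all genes were higher and 29.3% lower. Egln3, a prolyl hydroxylase that marks HIF for breakdown, had 139 ± 4.93 CPM in mutant and 64.4 ± 1.22 CPM in wild-type cells (1.11 ± 0.03), and Mycn was lower at -1.67 ± 0.09. With IFNg, Tigar, a phosphatase of fructose 2,6-bisphosphate, rose by 1.02 ± 0.05 to 28.3 ± 0.288 CPM in mutant and by 0.88 ± 0.05 to 22.2 ± 0.527 CPM in wild-type cells. Myc rose by 0.43 ± 0.05 in mutant and 0.36 ± 0.05 in wild-type cells. Of the 15 regulators, 7 rose and 2 fell with IFNg in the mutant, where 18.3% of all genes rose and 14.9% fell. In the wild-type 5 rose and 5 fell, where 17.8% of all genes rose and 17.6% fell. Known HIF targets outside glycolysis did not move one way. Of 17 tested, 5 were higher and 7 lower in mutant vehicle cells (median -0.03), against the same 24.4% and 29.3% of all genes. With both agonists 3 rose and 7 fell in mutant and 4 rose and 8 fell in wild-type cells. Over all genes 23.7% rose and 20.1% fell in mutant and 21.2% rose and 22.4% fell in wild-type cells. Ak4, a mitochondrial adenylate kinase, rose by 0.92 ± 0.09 in mutant and 0.81 ± 0.08 in wild-type cells with both, while Narf fell with a log2 change of -0.96 ± 0.06 and -0.79 ± 0.06. Glycogen primer Gyg also rose with IFNg, by 0.58 ± 0.03 in mutant and 0.61 ± 0.03 in wild-type cells.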

How the data were processed

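Total RNA depleted of ribosomal RNA was sequenced from 32 stranded libraries in 8 groups. The authors made an expected count and a TPM value per gene and library with RSEM 1.3.0 after alignment with STAR 2.5.2b to mm10, per the submitters' processing notes, and the deposited tables also give the effective length. The annotation release is not given in the sources used here. Symbols came from GENCODE vM21, matched without the version to 55394 of 55487 identifiers, with 93 unmatched.

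Expected counts, of which 11.07% of non-zero values were not whole, were rounded. Genes were filtered with filterByExpr (40618 removed), scaled by TMM and fitted with edgeR's quasi-likelihood model (robust, 1 mean per group, all 32 libraries, 24 residual degrees of freedom). P-values were adjusted by Benjamini and Hochberg over 14869 genes within each of 13 contrasts, and a call is an adjusted p under 0.05. Standard errors come from the same fit. Antisense overlap was not examined. The model was tested on simulated data first. No library pair of a group agreed within sampling noise (lowest chi-square per gene 6.96).

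The members and all gene lists were chosen with earlier results of these data known. The level of 1 marker is not reported here. Named in each contrast were up to 5 called rises and 5 called falls of largest size at 1 CPM or more in some group, and Hif1a, Slc2a1, Hk2, Pfkfb3, Ldha and Slc16a3 outside the response differences. Of 8 other pathway lists with 108 genes, up to 2 rises and 2 falls qualified per contrast, of which the text gives some. Members named beyond this rule were chosen after their values were seen. Replicate numbers were not used as pairs, since correlations of deviations ran between -0.237 and 0.227 over 40 same-numbered pairs. Alternatives were DESeq2, RLE and upper-quartile scaling, other filters, only the groups compared, a replicate block, the structural RNA share as a covariate each library left out and, chosen after seeing the data, wild-type vehicle libraries 1 and 4 or mutant libraries 3 and 4 given both agonists left out. R 4.3.3, edgeR 4.0.16, limma 3.58.1, DESeq2 1.42.0, Python 3.11.15, pandas 2.3.3, numpy 2.4.6 and matplotlib 3.10.9 were used.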

Additional observations from a re-analysis of the deposited data

Results flagged for a closer look

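Among groups of 4 libraries, 13 of 248 had a highest or lowest library separated from the nearest other by most of the group's range (Dixon's 95% critical value), where chance gives about 1 in 20. In mutant libraries these were Pfkm at 37.9 CPM and Ldha at 918 CPM, both lowest in Pam3CSK4 library 4. Pgk1 was highest at 930.3 CPM in library 3, Bpgm lowest at 5.67 CPM in library 4 and Eno1 lowest at 1635 CPM in library 2, all given both agonists. In mutant IFNg library 4, Pgam1 was highest at 646 CPM and Mpc1 lowest at 51.3 CPM. In wild-type vehicle library 3, Pgk1 was lowest at 802 CPM and Slc16a3 highest at 6.84 CPM. In wild-type Pam3CSK4 libraries, Pfkl was lowest at 95.3 CPM in library 1, Slc16a1 lowest at 196 CPM in library 2 and Pfkfb4 lowest at 6.02 CPM in library 4. Pdk3 was lowest at 25.7 CPM in wild-type library 1 given both agonists.

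A further 16 values are responses that differed between the lines, mutant minus wild-type on the log2 scale, in edgeR's test of the difference. For Pam3CSK4 these were Mpc1 0.90, Mpc2 0.36, Hif1a 0.18, Ldha 0.16, Slc2a1 -0.35, Pfkfb4 -0.32, Hk2 -0.30, Slc2a3 -0.25, Gapdh -0.19, Pfkp -0.16, Gpi1 -0.15 and Pfkfb3 -0.15. For both agonists they were Mpc1 0.68, Ldha 0.19, Hif1a 0.18 and Slc2a3 -0.17. The structural RNA share stood at 14.84% in wild-type Pam3CSK4 and 23.96% in wild-type vehicle libraries, and its part was not tested beyond the covariate fit.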

How the results depend on the processing

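Of 133 values named by rule, 116 were called, and each kept its call with DESeq2, with RLE size factors and with the filter at 1 CPM in 4 libraries. Calls were lost by 8 without a filter, 10 with only the groups compared, 4 with upper-quartile scaling and 30 with structural RNA share as covariate. That covariate is itself tied to genotype and treatment. It turned Mpc1 to -0.10 (mutant against wild-type, Pam3CSK4) and -0.17 (both agonists), and Pfkp in wild-type cells given Pam3CSK4 to -0.01. With it, the 7 members called for Pam3CSK4 in wild-type cells became 1, the 14 for both agonists 9, and the response differences 1 for IFNg (0 in the main test), 1 for Pam3CSK4 (12) and 1 for both (4). With only the groups compared, wild-type Pam3CSK4 gave 4. Without wild-type vehicle libraries 1 and 4, a choice made after seeing the data, it gave 4, and the differences were 7 for Pam3CSK4 and 0 for both. Without mutant libraries 3 and 4 given both agonists, also chosen after seeing the data, the differences for both were 1, and 7 of 28 named calls were lost. The cause was not tested.

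Leaving out 1 library gave 4 to 8 members for Pam3CSK4 in wild-type cells, and 15 of the 116 named calls were lost without some library, with no change of sign. Replicate numbers did not pair the libraries, and a replicate block gave 26, 19, 24 and 23 members for the genotype comparisons with vehicle, IFNg, Pam3CSK4 and both, as without it, and ended 1 named call.

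Genes under 1 CPM (Aldoc, Eno2, Aldoa-2, Ldhb, Pdk2) are where depth limits the result, and no call there is not evidence of equal levels. With 1 line per genotype, differences between lines and of the deletion cannot be told apart.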
